A study of Mus musculus with 2 samples.

Results

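Keratin genes were taken as the protein-coding genes whose symbol is Krt followed by a number, which gave 53 of 21938 protein-coding genes on the mouse build mm10. Keratin-associated protein genes (Krtap) were not members. Of the 53, 27 lie in the type I cluster on chromosome 11 and 26 in the type II cluster on chromosome 15. The type II cluster includes Krt18, which encodes a type I keratin but lies at the end of the type II cluster. Accessible chromatin was mapped by DNase-seq in whole thymus of 2 female B6CASTF1/J mice aged 25 days, a strain made by crossing C57BL/6J with CAST mice and using the first generation. Each animal gave 1 library, both belonged to 1 group with the same genotype and no treatment named in the labels, and no condition was contrasted.

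Keratins are the intermediate filament proteins of epithelial cells, and each filament is built from pairs of a type I and a type II chain. The Krt8 and Krt18 pair is made in simple epithelia and in cortical thymic epithelium, and the Krt5 and Krt14 pair in basal keratinocytes and in medullary thymic epithelium. Krt1 and Krt10 form the filaments of the upper epidermis, and many other members build hair and nail. Most thymus cells are developing T cells (thymocytes), which do not build keratin filaments. In whole tissue, fewer cells with an open site and less opening per cell cannot be told apart.

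DNase I cuts accessible DNA, and peaks are stretches of dense cutting as called by the authors in each library. Replicate 1 had 127552 peaks and replicate 2 had 67270, a ratio of 1.90, so counts are given per library. Read depth is unknown. The density of a peak is the authors' own value, with a scaling that is not stated, and it was used only to rank peaks within a library. A density percentile gives a peak's place among all peaks of its library. Footprints are short stretches inside cut DNA with less cutting, called by the authors, and numbered 363775 in replicate 1 and 203939 in replicate 2. Intervals on shares are 95% Wilson intervals over genes or peaks and cover counting error only.

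The sites that carry the results are shown first, from the mm10 reference sequence (the C57BL/6J genome), 5 prime to 3 prime on the strand of the gene named. Krt18 is shown because it was the one keratin gene open at its start in both animals, with the 250 bases before its start. There, capitals mark footprint bases of either library, since none was common to both.
Krt18 upstream, chr15:102027930-102028179, + strand: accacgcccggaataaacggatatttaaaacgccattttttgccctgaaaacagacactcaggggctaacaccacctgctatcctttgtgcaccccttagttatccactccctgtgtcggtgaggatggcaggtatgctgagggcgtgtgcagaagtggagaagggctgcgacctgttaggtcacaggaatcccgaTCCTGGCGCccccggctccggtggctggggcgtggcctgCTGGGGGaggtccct
The next 5 are sites found in both animals inside keratin genes, and in them capitals mark bases inside a footprint in both libraries. Krt222 held the densest site of all in a keratin gene by mean percentile, Krt10 and Krt1 held sites in coding exons of their glycine-rich tails, Krt86 a site in its last coding exon, and Krt83 the densest site in an intron.
Krt222 coding exon, chr11:99238541-99238780, - strand: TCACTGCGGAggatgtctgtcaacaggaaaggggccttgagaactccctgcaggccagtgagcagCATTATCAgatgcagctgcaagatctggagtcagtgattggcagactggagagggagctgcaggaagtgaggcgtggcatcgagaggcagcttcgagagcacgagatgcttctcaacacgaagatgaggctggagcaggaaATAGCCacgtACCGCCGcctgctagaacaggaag
Krt10 coding exon, chr11:99385941-99386180, - strand: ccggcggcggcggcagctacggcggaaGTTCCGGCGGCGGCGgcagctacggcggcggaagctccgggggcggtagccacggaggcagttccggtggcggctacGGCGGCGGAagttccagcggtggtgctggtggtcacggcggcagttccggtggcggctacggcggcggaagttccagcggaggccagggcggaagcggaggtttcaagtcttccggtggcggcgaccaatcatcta
Krt1 coding exon, chr15:101846001-101846180, - strand: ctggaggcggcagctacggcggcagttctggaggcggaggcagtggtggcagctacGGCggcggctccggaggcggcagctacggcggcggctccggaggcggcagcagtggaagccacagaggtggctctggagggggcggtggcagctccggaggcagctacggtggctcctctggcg
Krt86 coding exon, chr15:101479361-101479554, + strand: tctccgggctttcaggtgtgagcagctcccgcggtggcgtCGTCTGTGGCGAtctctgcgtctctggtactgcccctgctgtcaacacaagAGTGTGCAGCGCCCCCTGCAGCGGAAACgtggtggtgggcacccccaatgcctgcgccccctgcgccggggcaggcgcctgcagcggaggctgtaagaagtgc
Krt83 intron, chr15:101486021-101486260, - strand: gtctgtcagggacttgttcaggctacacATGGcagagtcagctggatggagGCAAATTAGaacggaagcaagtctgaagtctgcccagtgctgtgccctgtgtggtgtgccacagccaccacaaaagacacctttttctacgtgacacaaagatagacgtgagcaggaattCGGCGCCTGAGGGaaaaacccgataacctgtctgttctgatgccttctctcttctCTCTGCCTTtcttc
The last is a site between genes, shown on the strand of Krt8, in which the capitals again mark bases that both libraries called as footprint.
Site beyond the 3 prime end of Krt8, chr15:101984421-101984600, - strand: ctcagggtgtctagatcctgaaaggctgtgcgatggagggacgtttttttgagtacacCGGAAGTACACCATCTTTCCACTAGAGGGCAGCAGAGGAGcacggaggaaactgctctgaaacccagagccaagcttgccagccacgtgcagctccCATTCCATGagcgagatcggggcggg

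Nearly all keratin promoters lacked a called peak in the thymus of both animals. An open start, meaning a peak that touched the 1 kb on either side of the annotated gene start, was found at 6 of 53 keratin genes in replicate 1 (11.3%, interval 5.29% to 22.6%), against 61.7% of all protein-coding genes. In replicate 2 it was found at 1 of 53 (1.89%, 0.334% to 9.94%), against 55.1% of all protein-coding genes. At the gene start Krt18 alone was open in both libraries, where 54.4% of all protein-coding genes were. With any annotated transcript start counted, Krt222, Krt10, Krt83 and Krt1 were also open in both, and the means were 3.5 type I cluster genes and 4.5 type II cluster genes. With the authors' shorter peak lists Krt18 was open in replicate 1 alone, no other keratin start was open, and the means were 0 and 0.5. The shares of all protein-coding genes with any transcript start or with the shorter lists were not computed. In the type I cluster 2 and 0 of 27 genes were open in replicates 1 and 2, a mean of 1 ± 1.41 (SD, n = 2). In the type II cluster 4 and 1 of 26 were open, a mean of 2.5 ± 2.12 (SD, n = 2). The intervals of the shares of both clusters overlapped in each library.

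The keratin promoters open in replicate 1 alone had weak peaks. Krt24 had a density of 0.212 (percentile 6.29), Krt25 0.185 (4.33), Krt81 0.259 (10.9), Krt86 0.312 (16.5) and Krt5 0.217 (6.74). None of these 5 peaks was in the authors' shorter list of each library, and none of the 5 genes had a footprint within 1 kb of its start. The peaks of Krt24 and of Krt25, which encodes a keratin of the hair root sheath, touched the first coding exon, 91 and 102 bp from the gene start. The Krt81 and Krt86 genes encode hair keratins and had their peaks 228 and 309 bp from the start. The Krt5 peak began 986 bp from the start, near the edge of the window.

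The false discovery rates that the authors deposited per base were then read at the same starts. Krt18 had 465 bases with a rate below 0.05 within 1 kb of its start in replicate 1 and 343 in replicate 2, with lowest rates of 1.69e-12 and 0.00107. In replicate 1 such bases were found at 7 of 53 keratin genes, against 62.7% of all protein-coding genes, and the members other than Krt18 had between 6 bases (Krt90) and 107 (Krt24). In replicate 2 they were found at 3 of 53, against 56.3% of all protein-coding genes, with 10 bases at Krt32 and 3 at Krt14 beside Krt18. A footprint within 1 kb of the start was found at 1 of 53 keratin genes in each library, Krt18, against 59.7% and 54% of all protein-coding genes.

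Krt18 lies on the plus strand with its start at 102028180 on chromosome 15. Its promoter peak spanned 102028181 to 102028360 in replicate 1, with a density of 1.00 (percentile 55.7), and 102028144 to 102028488 in replicate 2, with a density of 0.588 (30.8). The first was in the authors' shorter list and the second was not. Within 1 kb of the start 4 footprints were called in each library, at different bases in the 2 libraries. Those of replicate 1 began at -53, 12, 42 and 122 from the start (the start base counts as 1 and the base before it as 0), and those of replicate 2 at -14, 53, 107 and 229. In the peaks of replicates 1 and 2, 90.0% and 93.7% of 31-base words occurred once in the genome.

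Krt8, whose protein pairs with that of Krt18, lies 23698 bp away, start to start, on the other strand. It had no peak within 1 kb of its start in either library. In replicate 1 a peak in its intron, from 102003281 to 102003480, lay 1002 bp from the start, just outside the window, with a density of 0.508 (percentile 33.7). A weaker peak at 102003075 to 102003219 had a density of 0.339 (19.2). Replicate 2 had no peak in the Krt8 gene body or the 5 kb beside it.

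The keratins of basal and thymic medullary epithelium had few and weak sites. Krt5, the type II chain of that pair, had 3 peaks in its gene body plus 5 kb in replicate 1 and 0 in replicate 2. Krt14, its type I partner, had 2 in replicate 1 and 0 in replicate 2, with densities of 0.391 (percentile 24.3) beyond its 3 prime end and 0.264 (11.4) in an intron. The nearest peak to the Krt14 start was 3828 bp away in replicate 1 and 62129 bp away in replicate 2. Krt15 and Krt17, type I keratins of basal and of contact or hair follicle epithelium, had 0 peaks in both libraries.

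Among the keratins of simple epithelia other than Krt8 and Krt18, Krt19 had 1 peak in each library at different sites. They lay in coding exon 5 in replicate 1 (density 0.185, percentile 4.33) and in an intron in replicate 2 (0.336, 9.85). Krt20, a keratin of intestinal and urothelial cells, had 1 weak peak in replicate 1 (0.164, percentile 2.94) and 0 in replicate 2. Krt7, found in ducts and glands, had 0 in both.

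The keratins of upper and internal stratified epithelia differed among themselves. Krt10 had 2 peaks in its gene body plus 5 kb in replicate 1 and 1 in replicate 2, and Krt1 had 1 in each, all away from the gene start. Krt4 and Krt13, the pair of internal stratified epithelia, had 0 peaks in both libraries. Krt6a and Krt16, the pair induced in wounded skin, also had 0 in both. At Krt6a and Krt16 66.3% and 65.1% of 31-base words within 1 kb of the start occurred once in the genome. Krt6b, Krt81 and Krt86 were the other members below 75%, and the median member stood at 96.3%.

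Counting the gene body plus 5 kb on each side (the territory), 24 of 53 keratin genes had a peak in replicate 1 (45.3%, interval 32.7% to 58.5%), against 79.5% of all protein-coding genes. In replicate 2 12 of 53 did (22.6%, 13.5% to 35.5%), against 70.6% of all protein-coding genes. All 12 were among the 24, and in both libraries together the share of all protein-coding genes was 69.8%. No peak in either library was found at 29 of 53 keratin genes (54.7%), against 19.7% of all protein-coding genes. Keratin territories were shorter, with a median of 16.6 kb against 27.4 kb over all protein-coding genes. Per 10 kb, the mean was 0.565 peaks in replicate 1 and 0.206 in replicate 2 in keratin territories, against 1.29 and 0.766 over all protein-coding genes. Footprints were found in the territories of 21 and 11 of 53 keratin genes, against 77.2% and 69.2% of all protein-coding genes.

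Peaks were unevenly spread over the members. The 53 territories held 50 distinct peaks in replicate 1 and 18 in replicate 2, a mean of 34 ± 22.6 (SD, n = 2). Krt83, a hair keratin, had 7 in replicate 1 and 5 in replicate 2, and Krt28, a keratin of the hair root sheath, had 7 and 1. Krt222, at the left edge of the type I cluster, had 2 and 3, of which 1 and 2 lay within 1 kb of the start of the neighbouring gene Smarce1, leaving 1 and 1. Krt86 had 3 and 2. After these, Krt5 and Krt77 had 3 in replicate 1 and 0 in replicate 2, and Krt10, Krt72, Krt82, Krt88 and Krt90 had 2 in replicate 1 and 1 in replicate 2. Neighbouring territories overlap. In each library 1 peak in coding exon 9 of Krt90 counted for both Krt82 and Krt90. In replicate 1, a peak in coding exon 7 of Krt75 also counted for both Krt90 and Krt75.

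**Figure D1:**
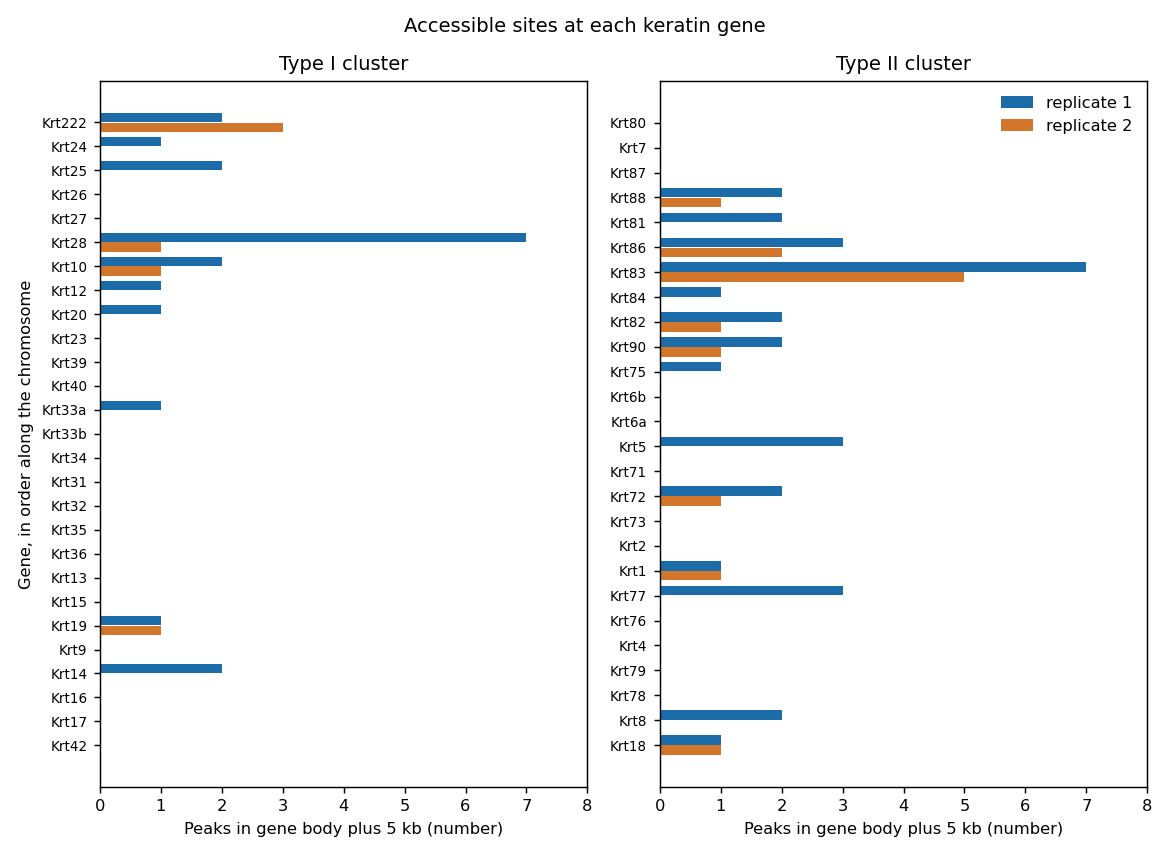
Number of peaks in the gene body plus 5 kb (x axis) for each keratin gene in order along its chromosome (y axis), with replicate 1 in blue and replicate 2 in orange and the type I cluster on the left. Krt83 had 7 and 5 peaks and Krt28 had 7 and 1, and 29 of the 53 genes had none in either library.

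Both clusters held fewer peaks per length than the DNA beside them. From 5 kb outside its first keratin gene to 5 kb outside its last, the type I cluster spans chr11:99227761-100274871 (1047.11 kb) and held 31 peaks in replicate 1 and 10 in replicate 2. That is 2.96 and 0.955 per 100 kb. The 500 kb on its left side held 25.4 and 14.4 per 100 kb, the 500 kb on its right side 20.6 and 13.6, and the whole genome 4.68 and 2.47. The type II cluster spans chr15:101342444-102037027 (694.584 kb) and held 43 and 17 peaks, or 6.19 and 2.45 per 100 kb. Its flanks held 16.0 and 8.80 on the left and 18.6 and 11.6 on the right. The type II cluster was thus above the genome mean in replicate 1 and close to it in replicate 2, and the type I cluster was below it in both.

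Long stretches of both clusters had no peak in either library. In the type I cluster the longest ran 314.222 kb, from 99690719 to 100004940, and held the starts of 11 Krtap genes and of 0 keratin genes. In the type II cluster the longest ran 115.674 kb, from 101588482 to 101704155, and held the starts of Krt6b and Krt6a. Peaks of the type I cluster were concentrated toward its left end, around Krt222, Krt28 and Krt10. Those of the type II cluster lay mainly around Krt88, Krt86 and Krt83 and in the stretch between Krt78 and Krt18.

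**Figure D2:**
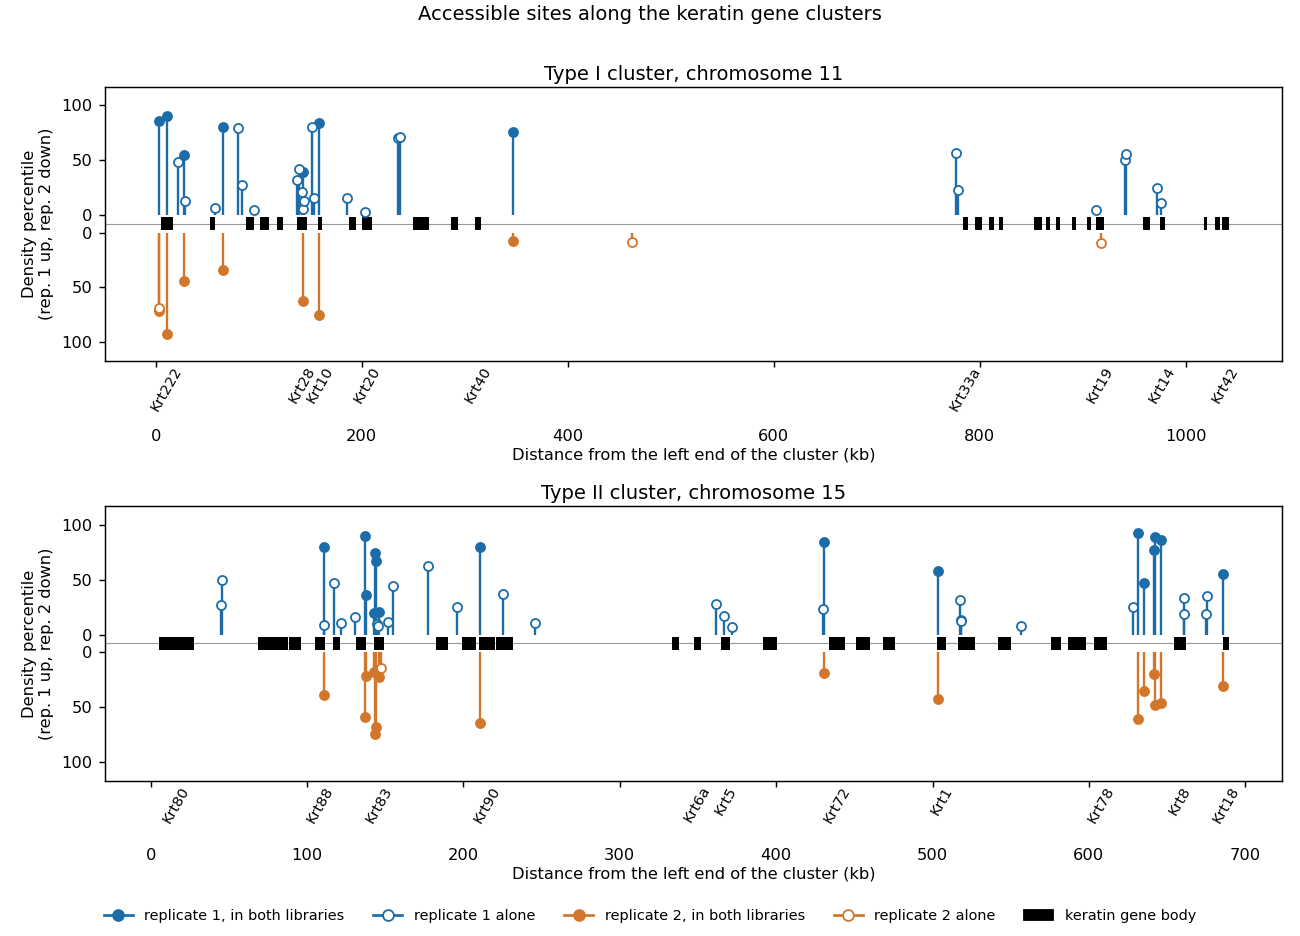
Peaks along both keratin clusters, with the distance from the left end of each cluster in kb on the x axis and the density percentile on the y axis, replicate 1 drawn upward and replicate 2 downward. Filled points are peaks with an overlapping peak in the other library, open points are peaks of 1 library, and black boxes are keratin genes. The type I cluster has a stretch of 314.222 kb with no peak of either library.

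Most cluster sites of replicate 2 were also found in replicate 1, and most of replicate 1 were not found in replicate 2. Of the 74 peaks of replicate 1 in both spans, 23 overlapped a replicate 2 peak by at least 1 bp (31.1%, interval 21.7% to 42.3%), against 46.9% of all its peaks. Of the 27 of replicate 2, 23 overlapped one of replicate 1 (85.2%, 67.5% to 94.1%), against 88.8% of all its peaks. The 23 shared sites had a higher density percentile in replicate 1 in 18 cases and in replicate 2 in 5, with a median difference, replicate 1 minus replicate 2, of 15.4. A percentile is a rank within a list, and the longer list of replicate 1 holds more unshared peaks. The same difference over all shared peaks was not computed, so these values do not show a difference between the animals at keratin sites. Of these sites 15 lay in keratin territories and 8 outside them.

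The densest shared sites in keratin territories by mean percentile were 5. The site in coding exon 3 of 6 of Krt222 had densities of 7.04 (percentile 90.3) in replicate 1 and 8.58 (92.3) in replicate 2. The site in coding exon 7 of 8 of Krt10 had 4.09 (84.2) and 2.42 (74.7). A site at 99230601 to 99230780, in the Krt222 territory but within 1 kb of the start of Smarce1, a chromatin remodelling gene, had 4.50 (85.4) and 2.03 (71.3). The site in the last coding exon of Krt86 had 7.05 (90.3) and 1.22 (59.0), so its rank differed by 31.3 percentile points between the lists, which differ in length. The site in a Krt83 intron had 2.25 (74.5) and 2.42 (74.7), nearly the same rank in both. These 5 sites had footprints in both libraries, from 2 at Krt86 in replicate 2 to 8 at Krt10 in replicate 1. In the sequences shown above, footprint bases common to both libraries numbered 31 at Krt222, 24 at Krt10, 40 at Krt86 and 35 at Krt83.

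**Figure D3:**
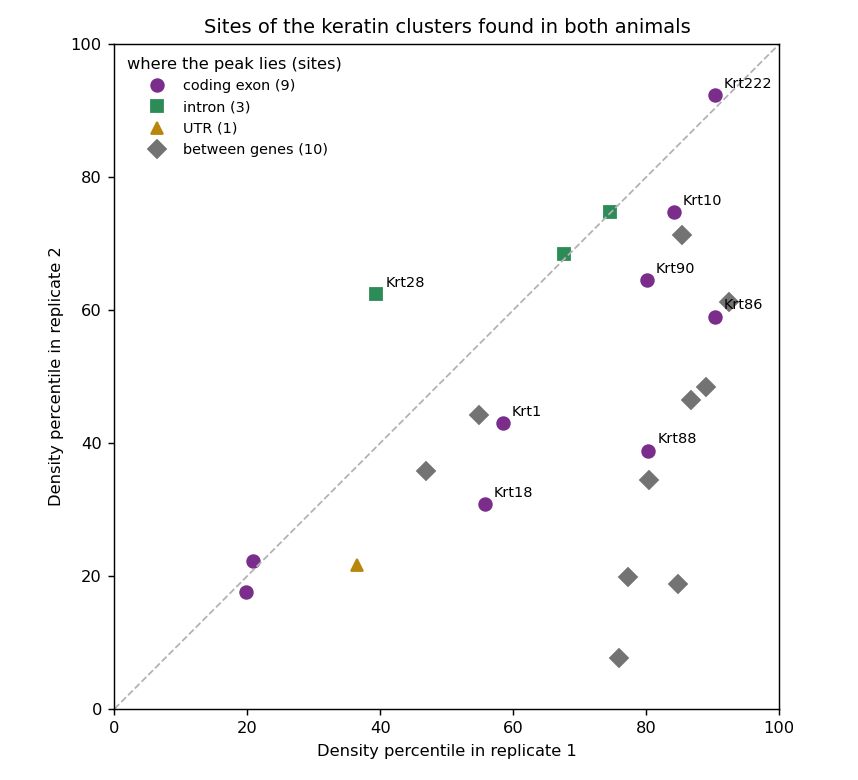
Density percentile in replicate 1 (x axis) against that in replicate 2 (y axis) for the 23 sites of the keratin clusters with an overlapping peak in both animals, marked by where the peak lies; the dashed line is equality. The Krt222 site stands at 90.3 and 92.3, and 18 of the 23 sites lie below the line. Percentiles are ranks within lists of unlike length, and all shared peaks were not compared in the same way.

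Shared sites inside keratin genes often lay in coding exons. Of the peaks in keratin territories, 19 of 50 in replicate 1 touched a coding exon more than 1 kb from any protein-coding gene start (38%, interval 25.9% to 51.8%), against 5.07% of all peaks. In replicate 2 9 of 18 did (50%, 29% to 71.0%), against 5.2% of all peaks. Among the 15 shared sites of the territories 8 did (53.3%), against 5.06% and 4.93% of all shared peaks of replicates 1 and 2. Keratin territories also hold more coding sequence, 9.64% of their DNA against 1.33% of the genome, and the part of this in the difference was not tested.

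The places of the 8 sites in their genes are listed without a share over all coding-exon peaks, which was not computed. In 5 type II cluster genes the site was in the last coding exon: Krt88 (exon 5 of 5) and Krt86, Krt83, Krt90 and Krt1 (each exon 9 of 9). The Krt90 site had densities of 3.12 (percentile 80.1) in replicate 1 and 1.5 (64.5) in replicate 2, the Krt88 site 3.15 (80.3) and 0.702 (38.8), and the Krt1 site 1.10 (58.4) and 0.774 (42.9). Those of Krt83 were weaker, with 0.344 (19.8) and 0.438 (17.6) in its last exon and 0.354 (20.8) and 0.486 (22.2) in exon 4. Of the 8 sites, 4 lay within 1 kb of the start of another annotated transcript of the same gene. The Krt10 peak contained such a start, 36 bp from its midpoint, and the sites of Krt222, Krt83 (exon 4) and Krt1 had one 214, 136 and 503 bp away. The remaining 4, at Krt88, Krt86, Krt90 and the last exon of Krt83, had none within 1 kb.

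Base composition differed among the shared sites inside keratin genes. The Krt1 and Krt10 sequences shown above are 73.9% and 72.1% G or C and lie in exons that encode the glycine-rich tails of these proteins, and the Krt86 and Krt90 coding exon sites had 67.5% and 64.4%. The Krt222 site had 56.3% and the Krt83 intron site 51.3%. Words of 31 bases occurred once in the genome for 84.3% of the Krt10 site, for 96.0% of the Krt1 site in replicate 1, for 88% and 74.3% of the Krt83 exon 4 site in replicates 1 and 2, and for 100% of the Krt222, Krt86, Krt88 and Krt90 sites.

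Outside the territories, 5 of the 8 shared sites lay between the Krt78 start and the 3 prime end of Krt8, from 8318 to 22897 bp beyond that end. The densest stood at 101973801 to 101973940, with 9.04 (percentile 92.5) in replicate 1 and 1.33 (61.2) in replicate 2. The site at 101984421 to 101984600 had 6.14 (88.9) and 0.894 (48.4), and the one at 101988201 to 101988380 had 4.99 (86.7) and 0.846 (46.4). All 3 had a higher percentile in replicate 1, whose list is longer, by 31.2 to 40.5 percentile points.

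Keratin starts were poor in CpG. The observed over expected CpG ratio in the window from 250 bases before to 50 after the start had a median of 0.260 over keratin genes, against 0.525 over all protein-coding genes. It was below 0.6 at 50 of 53 keratin genes (94.3%), against 55.6% of all protein-coding genes. The exceptions were Krt28 (0.782), Krt87 (0.765) and Krt18 (0.644), of which Krt18 alone had a promoter peak, so 1 of 3 was open in both libraries, against 93.3% and 88% of all protein-coding genes at or above 0.6. Among genes below 0.6, a promoter peak was found at 5 of 50 keratins in replicate 1 (10%, interval 4.35% to 21.4%) and 0 of 50 in replicate 2 (upper bound 7.13%), against 36.5% and 28.8% of all protein-coding genes with such a ratio. The keratin share was thus below that of all genes of low CpG ratio in both libraries, though those genes were not matched further.

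**Figure D4:**
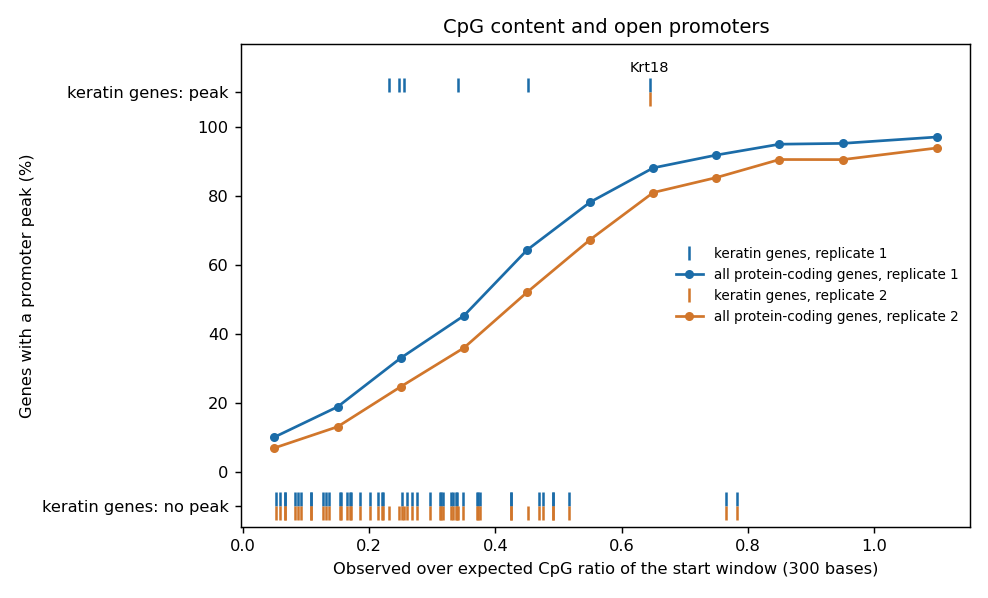
Share of all protein-coding genes with a promoter peak (y axis, percent) in bins of the CpG ratio of the start window up to 1.2 (x axis, bin midpoint, no unit), with replicate 1 in blue and replicate 2 in orange. Ticks above and below the percent scale are the 53 keratin genes with and without a promoter peak, and most of them lie below a ratio of 0.6.

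The letters TATAAA, the core of the TATA box, were present on the gene strand in the 50 bases before the start of 18 of 53 keratin genes (34%, interval 22.7% to 47.4%), against 3.25% of all protein-coding genes. They were at 13 of 27 genes of the type I cluster and 5 of 26 of the type II cluster. Among the open promoters, Krt25 and Krt86 had it and Krt24, Krt81, Krt5 and Krt18 did not.

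Short motifs were searched on both strands in 200 bp windows of all peaks, with motifs free to overlap each other. The RUNX letters TGTGGT were in 12 of the 74 span peaks of replicate 1 and 4 of the 27 of replicate 2 (16.2% and 14.8%, against 19.2% and 19.1% of all peaks). The ETS letters AGGAAG were in 20 and 9 (27% and 33.3%, against 33.5% and 36.8%). The E-box letters CAGCTG were in 12 and 5 (16.2% and 18.5%, against 16.9% and 19.6%) and CAGGTG in 16 and 6 (21.6% and 22.2%, against 23.9% and 26.3%). The TCF/LEF letters CTTTGA were in 15 of 74 peaks in replicate 1 (20.3%, against 13.1%) but in 2 of 27 in replicate 2 (7.41%, against 12.8%). The GATA letters AGATAA were in 2 of 74 and 0 of 27 (2.70% and 0%, against 6.55% and 5.79%), and the AP-1 letters TGANTCA in 7 and 1 (9.46% and 3.70%, against 5.96% and 5.53%). The SP/KLF letters GGGCGG were in 11 and 7 (14.9% and 25.9%, against 17.9% and 24.8%). The consensus of CTCF, the insulator protein, was in 8 and 2 (10.8% and 7.41%, against 5.46% and 4.25%). In the site shown beyond the 3 prime end of Krt8, all 12 letters of the CTCF match, positions 77 to 88, lay in footprint bases of both libraries. At the other shown sites, no match of the 9 motifs searched held a base printed in capitals.

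Other gene lists were set beside the keratins, with the shares of 61.7% and 55.1% of all protein-coding genes as background. Genes of intermediate filaments other than keratins were open at their start in 13 and 9 of 18 cases in replicates 1 and 2 (72.2% and 50%), and Krtap genes in 2 and 0 of 57 (3.51% and 0%). Markers of cornified and stratified epithelium other than keratins were open in 1 of 16 in both libraries, Dsc3 alone, a desmosomal cadherin gene. Its promoter peak was weak, with densities of 0.164 (percentile 2.94) in replicate 1 and 0.282 (7.14) in replicate 2. Markers of simple epithelium were open in 8 and 4 of 10 cases (80% and 40%), and their intervals, 49% to 94.3% and 16.8% to 68.7%, held the background share in both libraries. Thymic epithelium markers were open in 10 and 9 of 18 (55.6% and 50%), near the background share. Among them Aire, the regulator of tissue antigens in medullary epithelium, had promoter densities of 9.54 (percentile 92.9) and 4.24 (83.7). Ccl25, Ly75 and Ctsl stood at percentiles 95.1 to 98.1 in replicate 1 and 91.6 to 93.9 in replicate 2. Cldn4 and H2-Eb1 stood at 90.3 and 94.8 in replicate 1 and at 89.5 and 78.2 in replicate 2. Other open members were weaker. Cd83, Dll4 and Epcam stood at percentiles 40.9 to 49.6 in replicate 1 and 18.2 to 43.9 in replicate 2. Pax1 stood at 28.9 in replicate 1 and had no promoter peak in replicate 2. Foxn1, Psmb11 and Prss16 had no promoter peak in either library. In their gene body plus 5 kb they had 4, 2 and 6 peaks in replicate 1 and 3, 1 and 3 in replicate 2. Which cells carry the peaks of these markers was not tested. Thymocyte markers were open in 16 of 16 in both libraries. That list was chosen with earlier results of these data known, so it is no independent check of the tissue label. The keratin share was lower than that of the other filament genes in both libraries, with intervals of 5.29% to 22.6% and 0.334% to 9.94% against 49.1% to 87.5% and 29% to 71.0%. The intervals of the cornified epithelium markers, 1.11% to 28.3% in both libraries, overlapped those of the keratins. With 16 such markers, this overlap does not show that the shares are alike. Neighbouring keratin genes share their region, so the intervals are not a test between lists.

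**Figure D5:**
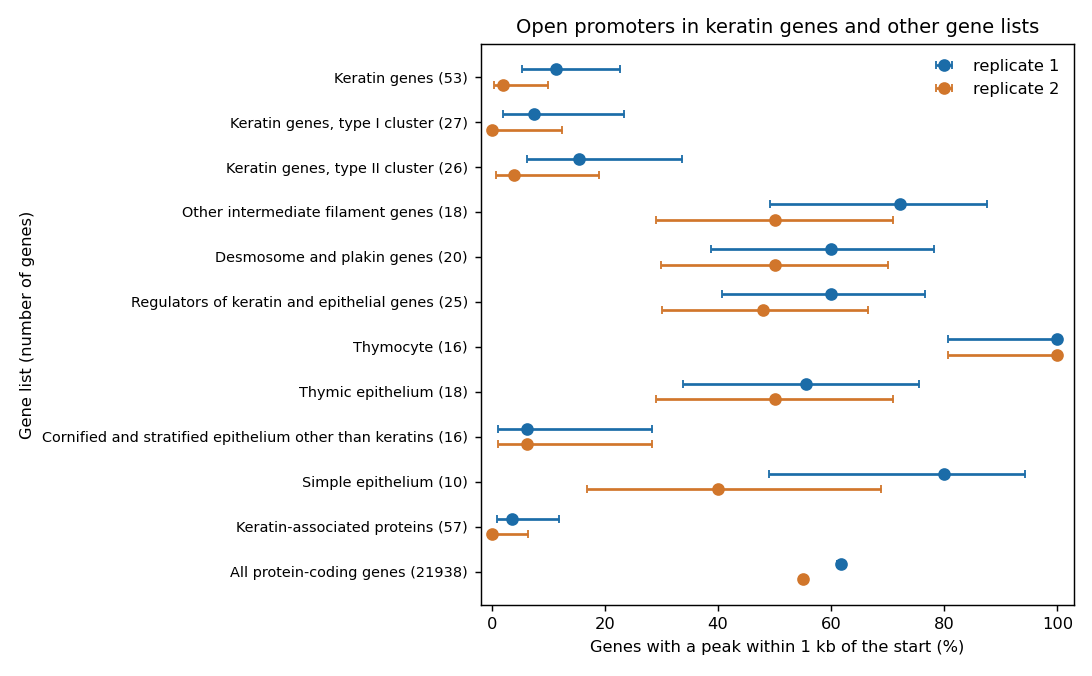
Share of genes with a peak within 1 kb of the start (x axis, percent) for the keratin genes, their 2 clusters, 8 other gene lists and all protein-coding genes (y axis), with replicate 1 in blue and replicate 2 in orange; bars are 95% Wilson intervals. Keratin genes stand at 11.3% and 1.89%, and thymocyte genes at 100%.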

How the data were processed

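DNase-seq of thymus from 2 animals (1 group, 1 library each) was analysed from the per-library files. Positions are on mm10, per the labels. The peak signal density and the false discovery rates (q-values) per run of bases were made by the authors and deposited, the latter with values below 0.05 only. Their deposited footprints carry a constant number, so only positions were used. For the density scaling, the aligner and the callers, details were not given in the sources used here. The longer of the 2 deposited peak lists per library was used.

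Protein-coding models were those of GENCODE M21 (GRCm38, which is the build mm10), and sequence came from the RefSeq copy of that genome. The RefSeq promoter table matched 36 of 53 members and was not otherwise used. Overlap meant at least 1 bp. No test across conditions was possible with 1 group, so counts are given beside all protein-coding genes. The members, gene lists and named genes (every keratin with a promoter peak, 15 set keratins of thymic and other epithelia, the 6 with most peaks and the 5 densest sites, with ties kept) were chosen with earlier results of these data known. Alternatives covered windows, gene starts, peak lists and leaving out each library. Python 3.11.15, numpy 2.4.6, pandas 2.3.3, scipy 1.17.1, numba 0.67.0 and matplotlib 3.10.9 were used. Overlaps were checked against bedtools 2.31.1 on simulated windows, with 0 differences in 500.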

Additional observations from a re-analysis of the deposited data

How the results depend on the processing

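Of 35 alternatives to the 5 keratin counts, 21 stayed within 1.5 times the mean over both libraries. The alternatives were computed for the keratins alone, with no share of all protein-coding genes beside them. Type I genes with a promoter peak (mean 1) went to 3.5 with any annotated transcript start, and to 0 with the shorter peak lists, with the denser 50% of peaks and with lists of equal length. Under these 4 settings type II genes (mean 2.5) went to 4.5, 0.5, 0.5 and 1. Any transcript start added Krt222, Krt10, Krt83 and Krt1 in both libraries and Krt19 in replicate 2. Distinct territory peaks (mean 34) went to 21.5 with the shorter lists, 11 with the denser 50% and 15.5 with equal lengths. Genes with a territory peak (mean 18) went to 9.5 with the denser 50%. Genes with a promoter footprint (mean 1) went to 2.5 within 2 kb and 5 with any transcript start. The cause was not tested beyond what each setting adds or removes. Without replicate 1 or replicate 2, the counts ranged from 0 to 2, 1 to 4, 12 to 24, 18 to 50 and 1 to 1 in the order type I promoters, type II promoters, territory genes, territory peaks and footprints. Leaving out replicate 1 leaves Krt18 as the one open keratin promoter. No paired analysis was possible because both libraries belong to 1 group. Read depth is unknown, the library with more peaks sets most counts, and a weak site missing from replicate 2 was not detectable in that list, which does not show that it is absent.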

Other observations

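Keratin genes were open at 6 and 1 of 53 starts in replicates 1 and 2, against 61.7% and 55.1% of all protein-coding genes. Desmosome and plakin genes, whose products anchor keratin filaments to cell junctions, were open at 12 and 10 of 20 starts (60% and 50%, with 95% Wilson intervals of 38.7% to 78.1% and 29.9% to 70.1%), close to the share of all protein-coding genes. Jup (plakoglobin) had promoter densities of 27.2 (percentile 98.8) and 15.5 (97.1), and Evpl (envoplakin) 4.61 (85.7) and 3.80 (82.1). Dsg3 and Dsc2, desmosomal cadherin genes, had 0 peaks in their gene body plus 5 kb in both libraries. The 25 regulators of keratin and epithelial genes had 15 and 12 open starts (60% and 48%), also close to it. The densest was Satb1, at percentiles 97.1 and 97.9 in replicates 1 and 2, and Gata3 stood at 79.7 and 59.3. Which cells carry the peaks of these regulators was not tested. Klf4 had 13.7 (percentile 95.4) and 5.97 (88.3), and Grhl1 16.9 (96.6) and 9.61 (93.4). Trp63, the regulator of basal epithelium, had no peak within 1 kb of its gene start in either library. It had 2 peaks in its gene body plus 5 kb in replicate 1 and 1 in replicate 2. Other transcript starts of Trp63 were not examined. Among intermediate filament genes other than keratins, Lmna (lamin A) had 17.8 (percentile 96.9) and 20.2 (98.4) and Vim (vimentin) 8.10 (91.6) and 3.15 (79.2). Des (desmin, of muscle) had no promoter peak in either library.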
